A study of Homo sapiens with 6 samples.

Results

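RNA levels in C4-2 cells in which EZH2 was knocked down by RNA interference were set against those in C4-2 cells given a scramble shRNA. C4-2 is an established human prostate cancer line derived from LNCaP. The cells were used at passages 10 to 15 in RPMI-1640 medium with serum. They were replated in 6-well plates, and the medium was then exchanged for one carrying lentivirus. The knockdown cells received either of 2 different EZH2 shRNAs and the control cells a scramble shRNA, so both carry a lentiviral hairpin. Astemizole, GSK126 and vehicle, given to C4-2 cells without virus, make up the rest of the series and appear here only beside the knockdown. The times after infection, the doses, the hairpin sequences and any selection of infected cells were not given in the sources used here. Polyadenylated RNA was sequenced, with 1 library per condition and 1 for each EZH2 hairpin. The deposited table holds 1 knockdown column, which is the authors' value for the 2 hairpins. A difference between the hairpins therefore cannot be seen, and none of the differences below has a replicate check or a test.

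Genes were compared as the log2 ratio of FPKM + 1 in the knockdown over FPKM + 1 in scramble shRNA, where FPKM counts fragments scaled by transcript length and by the mapped fragments of the library. The added 1 FPKM makes differences of low genes look smaller. Genes entered at 1 FPKM or more in either column, which 12357 of the 28503 names in the table met after 8 names were set aside. Those 8 were at exactly 0 in the knockdown while each of the 4 remaining columns held at least 5 FPKM. A further 18 names that had turned into dates and 22 short non-coding RNAs were removed, leaving 12317 genes, 11129 of them annotated as protein-coding. At the edge of the 1 FPKM rule, EBF3 was inside with 1.00 FPKM in the knockdown and 0.951 in scramble shRNA, and ZNF519 was outside with 0.422 and 0.997 in the same columns.

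EZH2 is the catalytic subunit of Polycomb repressive complex 2 (PRC2), which places methyl groups on a lysine in the tail of histone H3 and thereby keeps many developmental genes silent. EED and SUZ12 are needed for its activity, and EZH1 is a second, less active methyltransferase that can take the place of EZH2. EZH2 itself is made mainly in dividing cells and is abundant in advanced prostate cancer. In dividing cells, E2F factors switch on the genes of DNA replication, while the complexes around MYBL2 and FOXM1 switch on the genes of mitosis through a short promoter element called CHR. The retinoblastoma family and the DREAM complex hold the same promoters silent when CDKN1A, an inhibitor of cyclin-dependent kinases, is abundant.

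The promoters of CCNB2, CDC20, PLK1 and MYBL2 are shown because their genes recur in the results. CCNB2, CDC20 and PLK1 carry the CHR element typical of mitotic genes, and MYBL2 an E2F site. Each sequence spans 180 bases before and 20 bases after the annotated start and is taken from RefSeq (GRCh38.p14, all on the plus strand). The intervals are chr15:59104966-59105165 for CCNB2, chr1:43358801-43359000 for CDC20, chr16:23678709-23678908 for PLK1 and chr20:43666934-43667133 for MYBL2. Capitals mark the CHR element, the CCAAT box and the E2F site wherever either strand holds them.
CCNB2: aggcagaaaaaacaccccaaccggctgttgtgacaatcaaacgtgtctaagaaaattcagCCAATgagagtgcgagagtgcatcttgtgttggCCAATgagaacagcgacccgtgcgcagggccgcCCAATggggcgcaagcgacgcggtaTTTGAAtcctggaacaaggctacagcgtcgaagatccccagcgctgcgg
CDC20: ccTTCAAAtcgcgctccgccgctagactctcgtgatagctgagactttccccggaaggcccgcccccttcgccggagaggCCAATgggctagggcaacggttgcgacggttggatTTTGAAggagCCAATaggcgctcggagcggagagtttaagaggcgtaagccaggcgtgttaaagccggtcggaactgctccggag
PLK1: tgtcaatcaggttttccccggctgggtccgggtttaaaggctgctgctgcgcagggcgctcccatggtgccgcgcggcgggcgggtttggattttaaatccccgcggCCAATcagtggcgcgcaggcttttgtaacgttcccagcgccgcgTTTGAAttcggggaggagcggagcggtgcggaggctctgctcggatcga
MYBL2: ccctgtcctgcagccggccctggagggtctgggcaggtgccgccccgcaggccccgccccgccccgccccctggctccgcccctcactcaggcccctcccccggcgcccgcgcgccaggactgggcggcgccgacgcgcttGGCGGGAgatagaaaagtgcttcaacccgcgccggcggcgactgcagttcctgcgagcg
In CCNB2 and PLK1 the CHR element begins 29 bases before the start. CCNB2 has 3 CCAAT boxes upstream of it and PLK1 has 1. CDC20 has 2 CHR matches and 2 CCAAT boxes. MYBL2 has no CHR element or CCAAT box in this window and 1 E2F match beginning 39 bases before the start.

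The knockdown column was checked first through its target. EZH2 stood at 3.35 FPKM in the knockdown and 24.6 FPKM in scramble shRNA, beside 9.48 with astemizole, 17.5 with GSK126 and 26.5 with vehicle. The knockdown column was the lowest of the 5, and the log2 ratio to scramble shRNA was -2.55. SUZ12 followed with 13.4 FPKM in the knockdown and 28.6 in scramble shRNA (log2 ratio -1.04), against 18.1 with astemizole, 24.0 with GSK126 and 28.4 with vehicle. The other core members, EED at -0.67 and the histone-binding proteins RBBP7 at -0.59 and RBBP4 at -0.41, were lower by less than 2-fold. EZH1 had 6.12 FPKM in the knockdown and 2.85 in scramble shRNA (log2 ratio 0.89), and 4.56, 4.46 and 3.81 with astemizole, GSK126 and vehicle. EZH1 was thus highest in the column where EZH2 was lowest. Among the PRC2 accessory proteins, the ratio was 0.00 for both MTF2 and PHF1, 1.1 for JARID2 and -1.25 for PHF19. Of 20 Polycomb repressive complex 1 members, 1 was at least 2-fold higher and 0 were lower, beside 2.02% and 5.30% of all genes compared. The higher member was the chromodomain protein CBX6, at 36.5 FPKM in the knockdown and 17.6 in scramble shRNA (log2 ratio 1.01). Against vehicle its log2 ratio was 0.61.

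The label of prostate luminal cells held in both columns. All 8 luminal markers were above 1 FPKM, with a summed level of 4009 FPKM in the knockdown and 5344 in scramble shRNA. The basal markers KRT5 (0.0288 FPKM in the knockdown, 0 in scramble shRNA) and TP63 (0.00932 and 0.00802) were near 0 in both, and KRT14, the other basal marker, had 1.27 FPKM in the knockdown and 3.23 in scramble shRNA. The summed levels of fibroblast markers (2.43 FPKM in the knockdown, 1.05 in scramble shRNA), blood markers (1.87 and 2.40) and endothelial markers (0.607 and 0.562) were low in both, and so were liver markers (1.61 and 1.42). In the other columns liver markers summed to 4.27 FPKM with astemizole, 159 with GSK126 and 18.2 with vehicle. The source of that liver signal was not tested. Neuroendocrine markers summed to 8.98 FPKM in the knockdown and 3.60 in scramble shRNA, with SYP (4.63 and 0.510 FPKM) and SCG3 (3.45 and 0.0335) higher and ENO2 (0.895 and 2.83) lower. CHGA was at 0.0158 FPKM and INSM1 at 0 in the knockdown. In whole-culture RNA, fewer cells of a kind and less RNA per cell cannot be told apart. Over all genes compared, the scramble column differed little from vehicle, with a median log2 ratio of -0.10. At least 2-fold, 0.179% of genes were higher and 0.585% lower. Some gene lists used below moved more, with medians of -0.56 for mitotic kinases and cyclins, -0.45 for p53 arrest targets and 0.16 for hypoxia and glycolysis.

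Lower genes outnumbered higher ones in the knockdown. At least 2-fold, 249 of 12317 genes were higher, or 2.02%, and 653 were lower, or 5.30%, while the median log2 ratio of all genes was 0.04 and the quartiles were -0.29 and 0.31. The gap widened with the size of the difference, with 21 higher and 199 lower genes at 4-fold and 2 higher and 68 lower genes at 8-fold. The counts varied with the level of the gene. The 334 genes under 1 FPKM in scramble shRNA entered only through the knockdown column, so the 1 FPKM rule favours higher calls there. Of these, 47 were higher and, because that rule admits none, 0 lower. Of 3284 genes at 1 to 5 FPKM 93 were higher and 124 (3.78%) lower. Of 4533 genes at 5 to 20 FPKM 69 were higher and 264 (5.82%) lower, of 3247 at 20 to 100 FPKM 34 were higher and 221 (6.81%) lower, and of 919 at 100 FPKM or more 6 were higher and 44 (4.79%) lower. With each column divided by its median of ratios the counts were 220 higher and 691 lower, and with vehicle in place of scramble shRNA 250 higher and 931 lower.

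**Figure D1:**
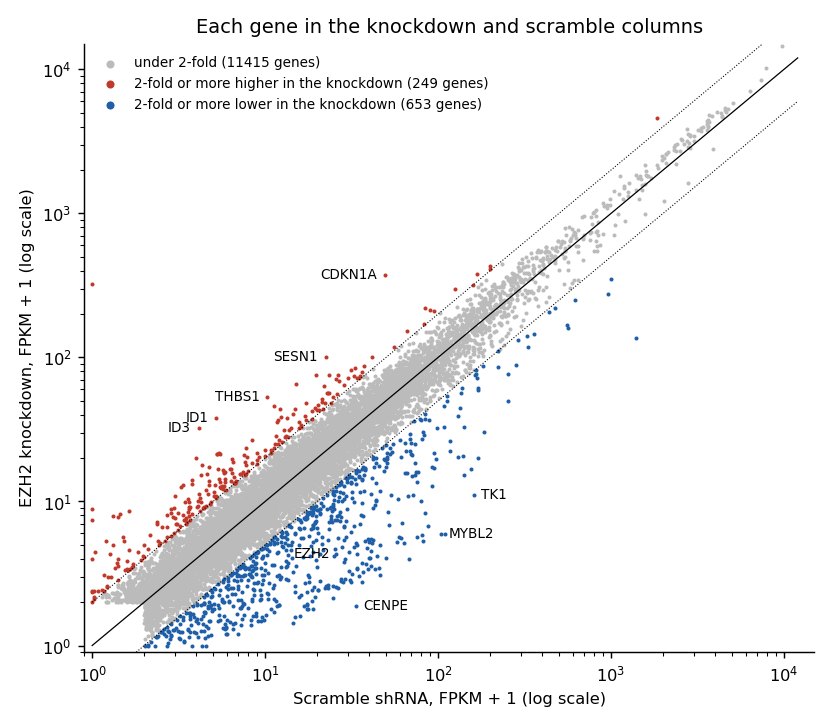
FPKM + 1 of each of the 12317 genes in the EZH2 knockdown (vertical, log scale) and in scramble shRNA (horizontal, log scale), 1 value per condition. The solid line marks equal levels and the dotted lines 2-fold; 249 genes lie on or above the upper line and 653 on or below the lower one, where a band of genes such as CENPE, MYBL2 and TK1 runs apart from the rest.

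The lower genes were led by the machinery of cell division. Over 13 lists that cover DNA replication, repair, chromatin assembly, mitosis and their regulators, 267 different genes were compared. Of these, 182 (68.2%) lay 2-fold or more below scramble shRNA and 0 above, and the median log2 ratio was -1.82. They made up 27.9% of all lower genes. Between scramble shRNA and vehicle, where no EZH2 hairpin was present, 1 of the same 267 genes was at least 2-fold lower and the median was -0.19. The medians of the 13 lists in that comparison ran from -0.56 for mitotic kinases and cyclins to -0.05 for cell cycle transcription factors.

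The replication origin is first marked by the origin recognition complex, ORC, and then loaded with the MCM helicase. Of 23 genes of licensing and of the MCM and GINS helicase, 19 were at least 2-fold lower and the median log2 ratio was -2.26. All 6 subunits of the MCM2 to MCM7 ring were lower, at log2 ratios of -2.99 to -2.11. MCM2 had 9.01 FPKM in the knockdown and 78.8 in scramble shRNA, and 25.5, 44.1 and 75 with astemizole, GSK126 and vehicle. The knockdown held the lowest value and the 2 control columns the highest. All 4 GINS subunits, which complete the active helicase, were lower too, at -2.53 to -1.29. The origin recognition complex was split. ORC1 had 1.1 FPKM in the knockdown and 10.2 in scramble shRNA (log2 ratio -2.42), and ORC6 6.29 and 28.2 (-2.0). The 4 subunits ORC2 to ORC5 lay at -0.17 to 0.10.

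Of 26 genes of the replicative polymerases, the sliding clamp and its loader, 18 lay at least 2-fold lower and 0 higher (median -1.30). PCNA, the clamp that tethers polymerases to DNA, had 48.5 FPKM in the knockdown and 252 in scramble shRNA, and 110.1, 138 and 303 with astemizole, GSK126 and vehicle. Its log2 ratio was -2.35. FEN1, the nuclease that trims Okazaki fragments, was further down, at 7.34 FPKM in the knockdown and 82.6 in scramble shRNA (-3.32), as was the primase subunit PRIM1, at 4.16 and 40.7 (-3.01). All 5 subunits of the clamp loader RFC were lower, at -2.27 to -1.11. Single subunits of the same polymerases stood near equal levels, among them POLD2 with 192 FPKM in the knockdown and 203 in scramble shRNA (-0.08) and POLE4 with 88.1 and 88.4 (0.00 after rounding).

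Enzymes of deoxynucleotide synthesis showed the same split between an S phase form and its relative. Of 12 members 7 were at least 2-fold lower. TYMS, thymidylate synthase, had 12.6 FPKM in the knockdown and 74.8 in scramble shRNA (log2 ratio -2.48). The cytosolic thymidine kinase TK1 was at -3.86 and the mitochondrial TK2 at -0.52. RRM2, the small subunit of ribonucleotide reductase in S phase, was at -3.95, and its counterpart outside S phase, RRM2B, at -0.43. Paralogs of a histone chaperone and of a lamin also differed from each other. ASF1B had 3.01 FPKM in the knockdown and 66.5 in scramble shRNA (-4.08), while its paralog ASF1A had 15.2 and 14.9 (0.03). The B-type lamins LMNB1 and LMNB2 were both below 0, at -2.12 and -0.73. The pairs were chosen after their values were seen.

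Repair genes differed by pathway. Of 30 genes of homologous recombination and the Fanconi anemia pathway, 23 lay at least 2-fold lower (median log2 ratio -1.73). The end-resection nuclease EXO1 had 0.581 FPKM in the knockdown and 13.9 in scramble shRNA (-3.23). FANCI, part of the clamp that marks crosslinks, had 3.34 and 32.8 (-2.96). Of 17 genes of mismatch and base excision repair, 4 were at least 2-fold lower and the median was -0.28. NEIL3 and UNG, glycosylases that act at replication forks, were at -2.52 and -1.53, and the polymerase POLB, which fills single-base gaps, at -0.23.

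**Figure D2:**
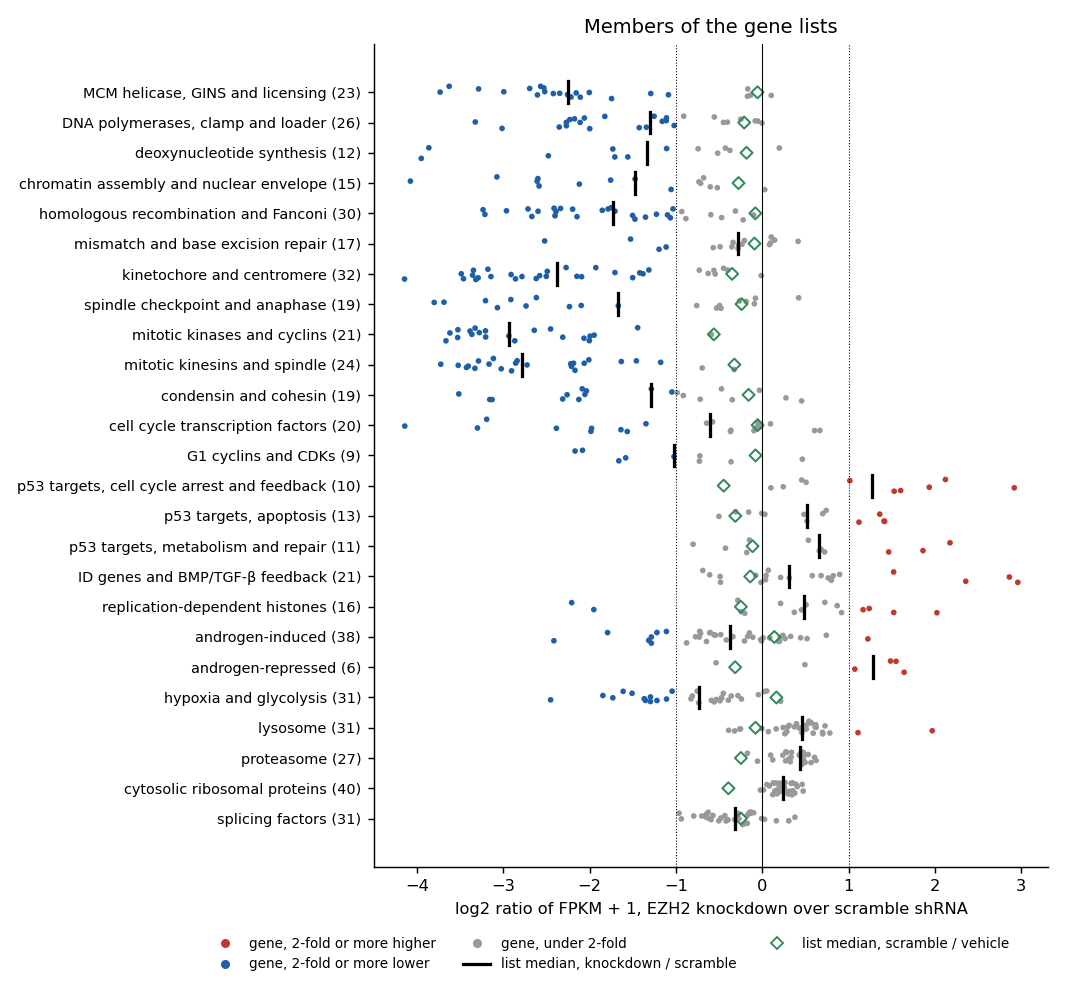
Log2 ratio of FPKM + 1 of each gene, EZH2 knockdown over scramble shRNA, for 25 of the lists, with the number of genes compared in brackets; bars are list medians, open diamonds the medians of the same lists for scramble shRNA over vehicle, and dotted lines mark 2-fold. The lists of mitotic kinases and cyclins (median -2.94) and of kinesins (-2.78) lie farthest to the left, and the lists of p53 targets for arrest (1.27) and of androgen-repressed genes (1.28) farthest to the right.

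The mitotic genes were taken as 4 lists. Of 21 mitotic kinases, cyclins and their regulators 20 lay at least 2-fold lower (median log2 ratio -2.94), and of 24 kinesins and spindle proteins 22 did (median -2.78). CCNB2, a B-type cyclin, had 4.71 FPKM in the knockdown and 58.7 in scramble shRNA, and 9.28, 48.0 and 95.5 with astemizole, GSK126 and vehicle. The kinase PLK1 had 2.74 FPKM in the knockdown and 35.3 in scramble shRNA, and 6.72, 35.2 and 71.3 in the other columns in that order. For both genes the knockdown was the lowest column and astemizole the next. Scramble shRNA was below vehicle by 0.69 on the log2 scale for CCNB2 and by 1.00 for PLK1, which is less than the distance of the knockdown from scramble shRNA, at -3.39 and -3.28. By the log2 ratio of FPKM + 1, the smallest difference in the kinase list was that of BORA, an activator of Aurora A (-0.59). Its levels were low, 0.427 FPKM in the knockdown and 1.15 in scramble shRNA, where the added 1 FPKM makes a difference look smaller.

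At the kinetochore, which ties chromosomes to the spindle, 25 of 32 genes were at least 2-fold lower (median -2.38). The 4 subunits of the NDC80 complex, which grips the microtubule, lay at -3.49 to -2.78. Of the 4 subunits of the MIS12 complex, which carries NDC80, 1 was at least 2-fold lower, DSN1 at -1.38, and the others lay at -0.63 to -0.40. The motor CENPE had 0.893 FPKM in the knockdown and 32.5 in scramble shRNA, and 2.05, 26.7 and 35.8 with astemizole, GSK126 and vehicle. At -4.14 it was the second lowest named gene after EPR-1 (4.99 FPKM in the knockdown and 108.2 in scramble shRNA, log2 ratio -4.19). EPR-1 overlaps BIRC5 on the opposite strand, and without known strand information the reads of the 2 genes cannot be told apart.

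Chromosome condensation and sister cohesion also differed by complex. All 8 condensin subunits, which compact mitotic chromosomes, were at least 2-fold lower, at -3.16 to -1.05. None of the 5 cohesin core subunits was, and they lay between -0.99 for STAG1 and -0.03 for STAG2. The cohesin protectors CDCA5 (2.56 FPKM in the knockdown, 39.7 in scramble shRNA, -3.52) and SGOL1 (0.200 and 4.96, -2.31) were low. Of 19 genes of the spindle checkpoint and anaphase, 10 were at least 2-fold lower and the median was -1.67. The anaphase-promoting complex has 2 activators in that list. CDC20, the mitotic one, had 4.83 FPKM in the knockdown and 80.2 in scramble shRNA, and 12.4, 69.0 and 135.7 with astemizole, GSK126 and vehicle (-3.80). FZR1, the other, had 8.96 FPKM in the knockdown and 9.52 in scramble shRNA (-0.08), and the 6 listed subunits of the complex lay at -0.49 to 0.42. These complexes were singled out from the lists after their values were seen.

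**Figure D3:**
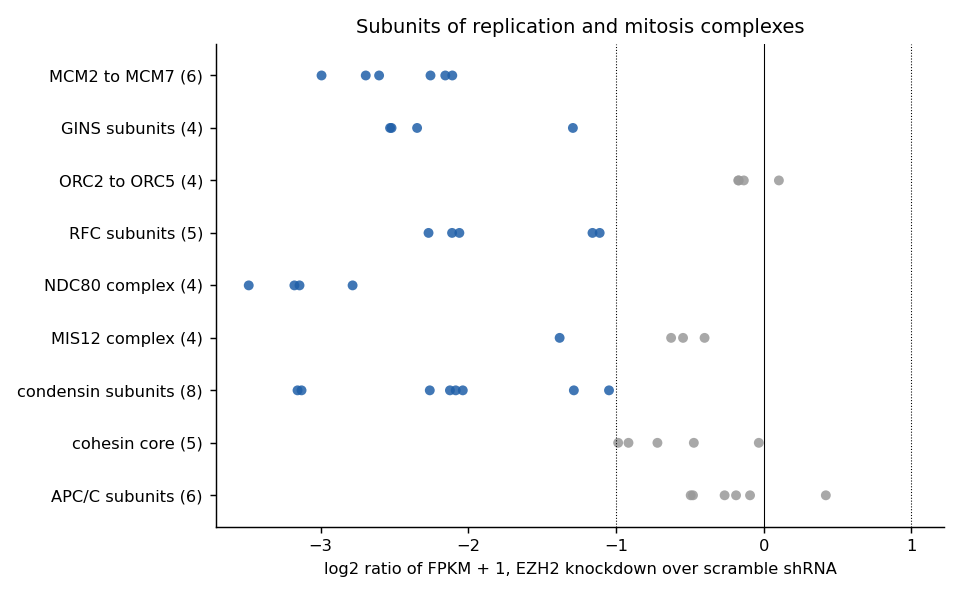
Log2 ratio of FPKM + 1, EZH2 knockdown over scramble shRNA, of each subunit of 9 groups of subunits, with the number of subunits in brackets; blue points are at least 2-fold lower and dotted lines mark 2-fold. MCM2 to MCM7, GINS, RFC, NDC80 and condensin lie wholly at or below the line, and ORC2 to ORC5, the cohesin core and the anaphase-promoting complex (APC/C) wholly above it.

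The transcription factors of the cell cycle differed among themselves, in activators and repressors alike. MYBL2 had 4.90 FPKM in the knockdown and 103 in scramble shRNA, and 20.9, 74.4 and 142 with astemizole, GSK126 and vehicle (-4.14). FOXM1 had 3.07 FPKM in the knockdown and 39.1 in scramble shRNA (-3.30), and E2F1 3.51 and 40.2 (-3.19), while the activator E2F3 was at -0.36. E2F8 and E2F7, repressors of the E2F family, were at -2.38 and -1.98. The repressor E2F4 was at -0.07, the retinoblastoma gene RB1 at -0.05, its relative RBL2 at -0.02 and the dimer partner TFDP2 at -0.10, whereas the relative RBL1 was at -1.64 and LIN9, a core subunit of the DREAM complex, at -1.35. In all, 9 of 20 factors were at least 2-fold lower and 0 higher. Of 9 G1 cyclins and kinases, 5 were at least 2-fold lower, led by CKS1B (-2.17) and CCNE2 (-2.08). CCND1, the D-type cyclin of early G1, had 238 FPKM in the knockdown and 172 in scramble shRNA (0.46).

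Motifs were counted over 300 bases, 250 before and 50 after each start, on both strands. The CHR element was searched as TTTGAA and as its variant TTCGAA, and the CCAAT box as CCAAT. The E2F site was searched as TTCCCGC and as the variants with the letters TTCGCGC, with the letters TTGGCGC and with the letters GGCGGGA. The TATA box was searched as TATAAA. The E2F word TTGGCGC can share 4 bases with a CCAAT box read on the other strand. Among the 77 genes of the 4 mitosis lists that were at least 2-fold lower, 63 had a promoter entry, and 68.3% of these held a CHR word, 77.8% a CCAAT box and 50.8% an E2F word. Among the 44 lower genes of the 3 replication lists 36 had an entry, of which 11.1% held a CHR word, 55.6% a CCAAT box and 86.1% an E2F word. In all 27305 genes of the promoter table the shares were 19.5%, 39.7% and 24.8% in that order. The TATA box was held by 4.76% of the mitosis genes, 8.33% of the replication genes and 14.0% of the table. These shares describe letters in a window and not binding. The promoter table also holds genes outside the comparison, so its shares are not those of the genes compared. For all lower genes the count is void, since 497 of 653 (76.1%) had an entry, and so it is for all genes compared, with 9208 of 12317 (74.8%).

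**Figure D4:**
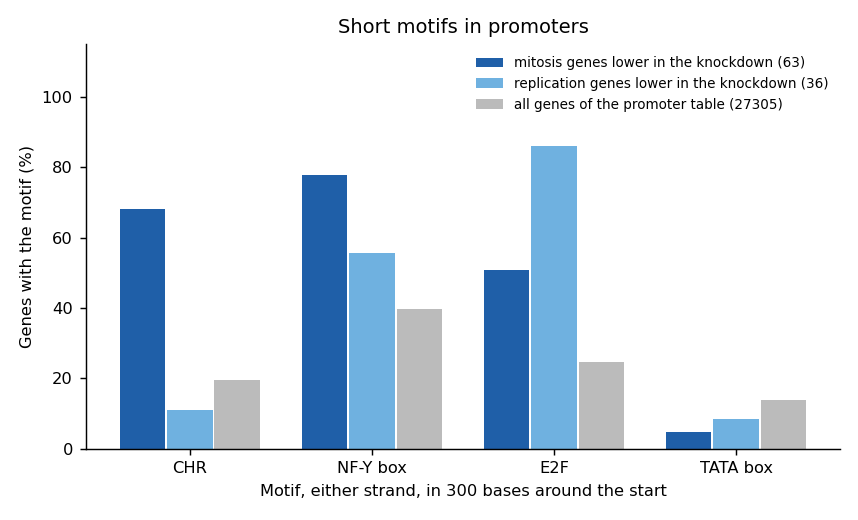
Share of genes (vertical, from 0) whose 300 bases around the start hold each motif, for the lower genes of the mitosis lists, the lower genes of the replication lists and all genes of the promoter table, with the number of genes in brackets; the NF-Y box is the CCAAT box. CHR words stand in 68.3% of the mitosis genes and 11.1% of the replication genes, and E2F words in 50.8% and 86.1%.

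Among the higher genes, the targets of p53 that arrest the cell cycle stood out by count. Of 10 compared, 6 lay at least 2-fold higher and 0 lower (median log2 ratio 1.27). CDKN1A had 369.8 FPKM in the knockdown and 48.0 in scramble shRNA, and 374, 73.6 and 99.4 with astemizole, GSK126 and vehicle. The knockdown and astemizole columns differed by little, and scramble shRNA was the lowest of the 5. BTG2, an antiproliferative factor, had 64.7 FPKM in the knockdown and 14.1 in scramble shRNA, and 35.1, 26.7 and 22.6 in the other columns in that order. SESN1, which restrains growth signalling, had 100.2 FPKM in the knockdown and 21.4 in scramble shRNA, and 37.3, 46.7 and 20.2 in the other columns. In BTG2 and SESN1 the knockdown was the highest of the 5. GADD45A, a stress-induced growth arrest gene, and TP53INP1, which takes part in autophagy and cell death, had ratios of 1.60 and 1.53.

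The targets that promote apoptosis were higher in part. Of 13, 4 lay at least 2-fold higher and 0 lower (median 0.52). The death receptor FAS had 6.79 FPKM in the knockdown and 1.92 in scramble shRNA, and 2.95, 2.23 and 3.37 with astemizole, GSK126 and vehicle (1.42). BBC3, the BH3-only protein PUMA, had 7.32 FPKM in the knockdown and 2.13 in scramble shRNA (1.41), with 9.92, 2.50 and 2.60 in the other columns. FAS was highest in the knockdown and BBC3 with astemizole. The related PMAIP1, or NOXA, had 2.58 FPKM in the knockdown and 3.0 in scramble shRNA (-0.16), and TP53I3 8.79 and 8.84 (-0.01). Of 11 targets in metabolism and repair, 3 were at least 2-fold higher, namely SESN1, SESN2 (1.46) and the mitophagy factor SPATA18 (1.86). GLS2, a glutaminase, was at -0.80. Scramble shRNA lay below vehicle for all 3 groups, with medians of -0.45, -0.31 and -0.11. Over the same genes the medians of the knockdown against vehicle were 0.85, 0.08 and 0.57, with 5, 2 and 2 genes at least 2-fold higher. The level of the scramble column thus moves with these results, and its part in them was not tested.

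**Figure D5:**
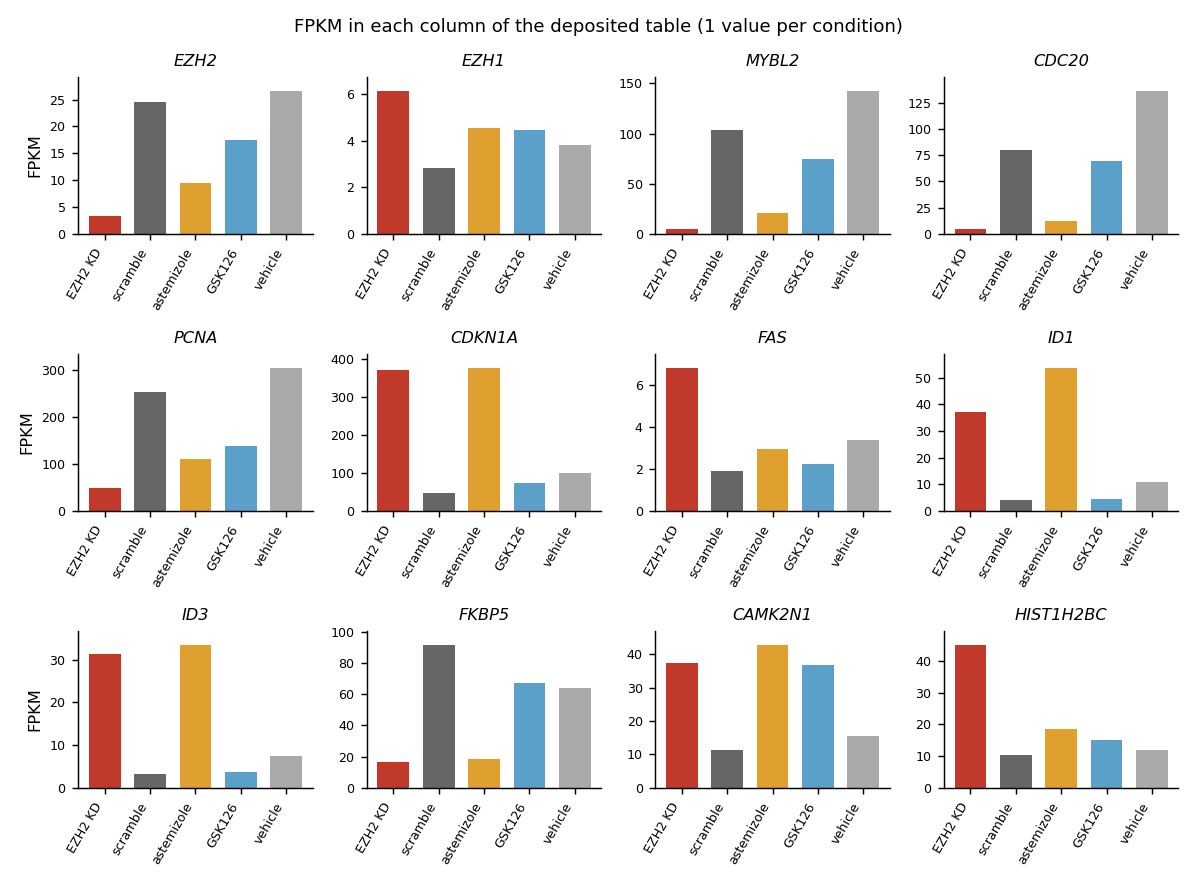
FPKM (vertical, from 0, each panel on its own scale) of 12 genes in the 5 columns of the deposited table, 1 value per condition with no error. EZH2, MYBL2, CDC20 and PCNA are lowest in the knockdown, EZH1, FAS and HIST1H2BC highest there, and CDKN1A, ID1 and ID3 are high both in the knockdown and with astemizole.

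The ID proteins, inhibitors of helix-loop-helix factors and direct targets of BMP signalling, included the gene with the highest ratio of those named. ID3 had 31.2 FPKM in the knockdown and 3.15 in scramble shRNA, and 33.4, 3.78 and 7.5 with astemizole, GSK126 and vehicle (2.96). ID1 had 36.9 FPKM in the knockdown and 4.22 in scramble shRNA, and 53.5, 4.49 and 11 in the other columns (2.86). ID2 had 17.7 and 5.51 FPKM (1.52), with 44.6, 10.0 and 6.75 in the other columns. All 3 were higher in the knockdown and with astemizole than in the remaining columns, and for ID1 and ID3 scramble shRNA was the lowest column. Of 21 genes of the wider list of ID genes and BMP or TGF-β feedback, 4 were at least 2-fold higher and 0 lower. The feedback inhibitors SMAD7 (0.90) and BAMBI (0.58) were under 2-fold, and SMAD6 had 4.97 FPKM in the knockdown and 8.63 in scramble shRNA (-0.69).

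CDK inhibitors were not higher as a class. Beside CDKN1A, CDKN2B was higher, with 1.59 FPKM in the knockdown and 0.214 in scramble shRNA (1.1). CDKN1B had 57.3 and 49.7 FPKM (0.20). CDKN3 (-2.92), a phosphatase that acts on cyclin-dependent kinases, CDKN2C (-1.92) and CDKN2D (-1.17) were lower.

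Histone genes pointed both ways. Of 16 replication-dependent histone genes, which in S phase give transcripts without a poly(A) tail, 4 were at least 2-fold higher and 2 lower. HIST1H2BC had 44.9 FPKM in the knockdown and 10.3 in scramble shRNA, and 18.4, 15.1 and 12.1 with astemizole, GSK126 and vehicle (2.02). HIST1H4C had 8.39 FPKM in the knockdown and 42.4 in scramble shRNA, and 4.41, 18.9 and 58.0 in the other columns (-2.21). HIST1H2BC was highest in the knockdown, while HIST1H4C was low there and lowest with astemizole. HIST1H2BD (1.52), HIST1H2AC (1.24) and HIST1H2BK (1.17) were the other higher members and HIST2H2AC (-1.95) the other lower one. Near-identical copies and the choice of polyadenylated RNA make these levels uncertain. Of 25 enzymes of histone and DNA methylation, the replication-coupled UHRF1 (1.90 FPKM in the knockdown, 26.5 in scramble shRNA, -3.24) and DNMT1 (13.5 and 40.3, -1.51) were lower, as were the heterochromatin methyltransferases SUV39H1 (-1.36) and SUV39H2 (-1.13). KDM6B, which removes the methyl mark that EZH2 places, was the 1 higher member, with 25.7 FPKM in the knockdown and 7.4 in scramble shRNA (1.67), and 12.9, 13.2 and 8.60 in the other columns. KDM6A, the other enzyme of that activity, was at 0.29.

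Androgen-responsive genes differed in both lists. The 38 androgen-induced genes had a median of -0.38, and 7 of them lay at least 2-fold lower and 1 higher. The list overlaps those of cell division. NCAPD3 (-1.29), among the lower ones, is also a condensin subunit counted above, and CENPN is also in the kinetochore list. FKBP5, a chaperone of steroid receptors, had 16.4 FPKM in the knockdown and 91.5 in scramble shRNA, and 18.6, 67.2 and 64.1 with astemizole, GSK126 and vehicle (-2.41). ODC1, the first enzyme of polyamine synthesis, had 276 FPKM in the knockdown and 958 in scramble shRNA (-1.79), with 198, 1155 and 1274 in the other columns. Both were low in the knockdown and with astemizole. In the androgen-repressed list 4 of 6 lay at least 2-fold higher and 0 lower. CAMK2N1, an inhibitor of CaM kinase II, had 37.5 FPKM in the knockdown and 11.3 in scramble shRNA, and 42.7, 36.8 and 15.7 in the other columns (1.64). TMEFF2 (1.55), DDC (1.48), which decarboxylates aromatic amino acids, and ST7 (1.07) were the others. Against vehicle 2 of the 6 were at least 2-fold higher, with TMEFF2 at 0.67 and ST7 at 0.88, and of the androgen-induced genes 5 were lower and 0 higher, with a median of -0.14. The factors that guide the androgen programme were near equal, FOXA1 at 0.13, HOXB13 at -0.17 and GATA2 at -0.08.

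Metabolic and housekeeping groups were compared last among the lists. Of 31 genes of hypoxia and glycolysis 12 lay at least 2-fold lower and 0 higher (median -0.74). The platelet isoform of phosphofructokinase, PFKP, had 16.2 FPKM in the knockdown and 93.1 in scramble shRNA (-2.45), while the muscle isoform PFKM had 75.6 and 65.0 (0.21) and the liver isoform PFKL 50.6 and 52.2 (-0.05). Of 27 proteasome genes 25 had ratios above 0, though 0 were at least 2-fold higher and the median was 0.44. Of 40 cytosolic ribosomal protein genes 39 were above 0, with a median of 0.23. Against vehicle those medians were 0.16 and -0.12, so the direction for ribosomal protein genes depends on the control column. Of 31 splicing factors 27 were below 0, with a median of -0.32, and of 31 lysosomal genes 26 were above 0, with a median of 0.46.

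The lower genes were compared with those that differed after astemizole, an antihistamine reported to disrupt the contact of EZH2 with EED, and after GSK126, an inhibitor of EZH2 catalysis, each against vehicle. All shares in this paragraph are within the 12317 genes compared, so genes at 1 FPKM or more only in another column are left out. Of the genes compared, astemizole left 3.06% higher by 2-fold or more and 5.42% lower, and GSK126 left 0.755% higher and 0.812% lower. Of the 653 genes lower in the knockdown, 399 (61.1%) were also lower with astemizole, which is 59.7% of the genes lower with astemizole. With GSK126 68 (10.4%) were lower, which is 68.0% of the genes lower with GSK126. Of the 249 genes higher in the knockdown, 63 (25.3%) were higher with astemizole and 31 (12.4%) with GSK126, or 16.7% and 33.3% of the genes higher with those compounds. The median of the licensing and helicase list was -2.26 in the knockdown, -1.68 with astemizole and -0.78 with GSK126, and that of the mitotic kinases -2.94, -2.73 and -0.86.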

How the data were processed

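Polyadenylated RNA of C4-2 cells was sequenced and quantified by the authors. The deposited values are FPKM, per the labels. TopHat2, Cuffdiff and the build hg19 are listed in the submitters' processing notes. Not given in the sources used here are the annotation, the strand setting, read totals and how the knockdown column was made from 2 hairpin libraries. Depth is therefore unknown and no counting interval is given. The ratio of low values piled up at 0.856 for scramble shRNA over vehicle (178 genes in the fullest window, median 4) and at 0.530 (105 genes) and 1.06 (53 genes, median 5) for the knockdown over scramble shRNA. FPKM summed to 676198 in the knockdown and 661933 in scramble shRNA, with 18815 and 17698 names above 0. A 0 may be a failed estimate.

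From the deposited FPKM, log2 ratios were computed with a pseudocount of 1 FPKM in Python 3.11.15 with pandas 2.3.3 and numpy 2.4.6. With 1 value per condition a gene is called higher or lower at 2-fold, with no test. The comparison and its 61 lists (960 genes compared) were chosen with earlier results of these data known, and complexes, gene pairs and further genes were picked after their values were seen. Named by rule were EZH2, EED, SUZ12 and EZH1, the 15 highest and 15 lowest genes at 5 FPKM or more with a known symbol and no 0, up to 4 members of each list, and 10 genes low in scramble shRNA. The values of some genes that this rule takes in are not reported here. Steps were tested on simulated data. RefSeq promoters follow GRCh38.p14, a later build than the table's, and were matched by symbol, with shares given only where at least 80% of genes had an entry. The alternatives were a pseudocount of 0.1 FPKM, other filters, 2 other scalings and vehicle as control. With vehicle as control, the median of all genes moved by -0.13 on the log2 scale.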

Additional observations from a re-analysis of the deposited data

Results flagged for a closer look

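Some short RNAs, which the comparison left out, had a value in the knockdown column only. BCYRN1 was listed at 38.2 FPKM in the knockdown column, and at 0 in the other 4 columns. SNORA74B was listed at 9.73 FPKM and SNORA23 at 6.89 FPKM in the knockdown column, again with 0 in the other 4. No fold is given against a 0.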

How the results depend on the processing

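Results rest on 1 value per condition, so sampling and biological spread are unknown. No paired analysis was possible because each condition is a single column. Of 653 lower and 249 higher genes, 571 and 136 held against vehicle. With 0.1 FPKM as pseudocount 449 genes were higher, and without a filter as well 877 were higher and 1378 lower, or 38.9% higher in place of 27.6%. Without the members of the 13 proliferation lists 249 were higher and 471 lower, an alternative chosen after seeing the data, as was keeping only genes with a known symbol (225 and 634). With vehicle as control 12467 genes entered in place of 12317, so a list can hold other members than above. The medians were then -1.55 for polymerases, -2.77 for kinetochores, -3.45 for mitotic kinases and 0.63 for p53 arrest targets. For the p53 arrest targets compared above the median against vehicle was 0.85. The other medians were 0.83 for androgen-repressed genes, 0.16 for the proteasome and -0.61 for splicing factors. With 0.1 FPKM as pseudocount, with or without the filter, they were -2.77 for kinetochores, -3.27 for mitotic kinases, -3.50 for kinesins and -2.25 for homologous recombination. The last was -2.0 with a filter at 5 FPKM and -1.98 after TPM rescaling. The p53 arrest median was 0.51 with no filter, 0.76 with 0.1 FPKM and no filter and 1.53 with the 5 FPKM filter, the ID and BMP median 0.67 with that filter, and the androgen-repressed median 0.45 with no filter. The causes were not tested. Directions turned for the medians of 9 lists. With vehicle as control they were -0.00336 for mesenchymal genes, -0.0983 for HOX genes, -0.12 for ribosomal proteins and -0.11 for the respiratory chain. For the 5 mesenchymal genes compared with scramble shRNA the median against vehicle was 0.50, so that direction turned only with other members. With the 5 FPKM filter the medians were -0.00265 for methylation enzymes and 0.0668 for metallothioneins. With no filter they were 0.00186, 0.0130 and 0.0780 for basal, blood and liver markers, and 0.0173, 0.125 and 0.353 with 0.1 FPKM as well. Of the values of the 244 named genes, 1604 kept their side of 2-fold over these settings, 42 passed it and 30 lost it.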

Other observations

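Outside the 61 lists, the 25 highest and 25 lowest genes at 5 FPKM or more in either column were read through. Many of the lower ones are known from cell division, among them CEP55, GTSE1 and the proliferation marker MKI67 (1.03 FPKM in the knockdown and 17.7 in scramble shRNA, log2 ratio -3.20). Genes of other kinds were chosen from both ends after their values were seen. HS3ST1, a heparan sulfate sulfotransferase, had 17.0 FPKM in the knockdown and 3.33 in scramble shRNA, and 4.85, 11.3 and 4.21 with astemizole, GSK126 and vehicle (log2 ratio 2.06). GRIN3A, an NMDA receptor subunit, had 20.4 and 4.25 FPKM (2.02), and LTN1, a ubiquitin ligase of stalled ribosomes, 20.3 and 4.28 (2.01), in both cases with the knockdown as the highest column. FGF13, a regulator of sodium channels, had 13 FPKM in the knockdown and 2.75 in scramble shRNA (1.90), but 28.6 with astemizole. CLU, the chaperone clusterin, had 12.2 FPKM in the knockdown and 2.79 in scramble shRNA (1.8), with 15.7, 5.76 and 6.78 in the other columns. For CLU scramble shRNA was the lowest column, and the log2 ratio of the knockdown to vehicle was 0.76. Among the lower genes, APOBEC3B, a cytidine deaminase, had 3.48 FPKM in the knockdown and 29.7 in scramble shRNA (-2.77), and the neuropeptide gene NMU 1.52 and 25.4 (-3.39). RPS17L had 135.8 FPKM in the knockdown and 1394 in scramble shRNA, but 168, 216 and 244 in the other columns, so the scramble column is the one that stands apart, and a near-identical copy makes its level uncertain.

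Some genes stood apart in the knockdown alone. Among genes with a known symbol, 7378 had their other 4 columns within 1.5-fold of each other in FPKM + 1. Of these, 17 were at least 2-fold higher in the knockdown than in all 4, and 31 were at least 2-fold lower. The added 1 FPKM draws low values together. SCG3, for example, passed with 0.0124 to 0.0652 FPKM in those 4 columns. The rule was made after the values were seen and has no test. The genes given here were picked from these and are of several kinds. BHLHA15, a transcription factor of secretory cells, had 17.6 FPKM in the knockdown and 73.0 in scramble shRNA, and 50.5, 75.8 and 67.0 with astemizole, GSK126 and vehicle (log2 ratio -1.99). The co-chaperone DNAJC3 had 5.04 FPKM in the knockdown and 19.2 in scramble shRNA (-1.74), the lectin chaperone CANX 60.1 and 169.6 (-1.48), and the cargo receptor LMAN1 17.6 and 49.5 (-1.44). Of the 20 ER chaperones in the list 3 were at least 2-fold lower, namely DNAJC3, CANX and MANF (74.5 and 162 FPKM, -1.11), and the median was -0.34, with HERPUD1 at -0.89, HSPA5 at -0.41 and PDIA3 at 0.00. ARF1, a GTPase of Golgi transport, had 145 FPKM in the knockdown and 359 in scramble shRNA, and 401, 355 and 408 in the other columns (-1.30). SUMO3, a ubiquitin-like modifier, had 24.5 and 63.3 FPKM (-1.34). Among the higher ones, SIK1, a salt-inducible kinase, had 15.1 FPKM in the knockdown and 4.80 in scramble shRNA (1.47), the mitochondrial protein GDAP1 16.2 and 3.76 (1.86), and SCG3, a granin of secretory granules, 3.45 and 0.0335 (2.11). For DYNLRB1, a dynein light chain, the opposite held. It had 219 FPKM in the knockdown and 83.0 in scramble shRNA (1.39), but 214, 191 and 213 in the other columns. In all, 20 of the 249 higher genes were at least 2-fold lower in scramble shRNA than in vehicle, beside 72 of all 12317 genes (0.585%). The scramble value enters both ratios, so a low one favours both calls.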
